A study of Homo sapiens with 6 samples.

Results

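Skipped exons of 500 nt or more were followed in the human breast cancer line MDA-LM2 after knockdown of a spliceosome protein. An exon belonged to this class if the middle exon of an annotated skipped-exon event, the exon that is either kept or left out between 2 flanking exons, measured at least 500 nt. Where several events shared a middle exon, the event with the most informative reads over all pools was kept. This gave 1089 long exons of 943 genes, of 40658 skipped exons in all, and overlapping forms reduced them to 988 separate sets. The cells are a lung-metastatic derivative of MDA-MB-231, and RNA was taken 48 h after transfection. The siSNRPA1 group held 3 libraries, the siSNRPB group 1 library and the siCtrl group, transfected with a control siRNA, 2 libraries. All groups are the same line with no other genetic change named, the design names 3 siRNAs against SNRPA1 and 2 against SNRPB, and no label ties an siRNA to a library. The authors deposited 1 set of values per group, called a pool here, so no value has a replicate or an SD. Every test below sets the reads of 1 pool against those of another, so it speaks of these pools and not of the conditions.

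Most internal human exons are far shorter than 500 nt, a size at which splice sites are thought to be paired across the exon in a process called exon definition. SNRPA1 encodes a core component (U2 A') of the U2 particle, the ribonucleoprotein that pairs with the branch point upstream of an exon, and SNRPB encodes the Sm proteins B and B' of the ring that all major spliceosomal ribonucleoproteins except U6 carry. Many long internal exons encode extended, repeat-rich or structural stretches of large proteins, and their skipping removes a large piece of protein when the reading frame is kept. When the frame is lost, skipping usually brings an early stop codon.

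The junctions of 5 of these exons show what inclusion and skipping look like in the RNA. They are coding exons named below, taken from GENCODE 29 transcripts on hg38 and written 5′ to 3′ with 20 nt on each side of the junction. Capitals mark the bases of the long exon. The skipping junction joins the lower-case flanks directly and holds no base of the exon. PHF3 (chr6:63684129-63685911, plus strand, 1783 nt, exon 4 of 16) and NDUFV3 (chr21:42903182-42904276, plus strand, 1095 nt, exon 3 of 4) were among the exons with lower inclusion in a knockdown. So was SGO1 (chr3:20174249-20175055, minus strand, 807 nt, exon 6 of 9). ANK2 (chr4:113353045-113359299, plus strand, 6255 nt, exon 37 of 45) and AP5M1 (chr14:57274244-57274889, plus strand, 646 nt, exon 2 of 8) had higher inclusion.
PHF3, entry: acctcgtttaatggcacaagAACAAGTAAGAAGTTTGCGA
PHF3, exit: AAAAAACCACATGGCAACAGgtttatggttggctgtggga
PHF3, skipping: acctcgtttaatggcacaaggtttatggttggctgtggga
NDUFV3, entry: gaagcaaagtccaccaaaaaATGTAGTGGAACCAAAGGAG
NDUFV3, exit: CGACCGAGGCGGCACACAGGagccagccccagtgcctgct
NDUFV3, skipping: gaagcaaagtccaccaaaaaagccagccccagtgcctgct
SGO1, entry: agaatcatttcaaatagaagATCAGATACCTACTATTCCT
SGO1, exit: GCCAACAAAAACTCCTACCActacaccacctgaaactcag
SGO1, skipping: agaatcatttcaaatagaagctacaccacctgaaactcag
ANK2, entry: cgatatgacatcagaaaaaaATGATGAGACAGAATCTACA
ANK2, exit: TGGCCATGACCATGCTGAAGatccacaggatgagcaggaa
ANK2, skipping: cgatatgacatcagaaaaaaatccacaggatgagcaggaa
AP5M1, entry: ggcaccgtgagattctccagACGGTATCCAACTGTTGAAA
AP5M1, exit: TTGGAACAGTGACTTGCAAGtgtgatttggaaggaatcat
AP5M1, skipping: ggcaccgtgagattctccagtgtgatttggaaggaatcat

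Skipping of the ASPM, NDUFV3, SGO1 or ANK2 exon keeps the annotated stop codon, since their lengths are multiples of 3. The ASPM exon encodes 1585 of 3477 codons, the NDUFV3 exon 365 of 473, the SGO1 exon 269 of 561 and the ANK2 exon 2085 of 3924. Skipping of the PHF3 exon shifts the frame and reaches a stop 18 codons after the junction, and skipping of the AP5M1 exon does so after 13 codons. Of 276 coding long exons whose 3 exons follow each other in an annotated transcript, 147 had a length that is a multiple of 3, and all 147 kept the stop on skipping. None of the other 129 kept it, and their median distance to a new stop was 13 codons.

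The targeted genes were low in their own pools. Per 1000000 reads that fit at least 1 isoform, including those that fit both, SNRPA1 events held 21.9 in siSNRPA1 cells, 272 in siSNRPB cells and 118 in siCtrl cells. On the same scale SNRPB events held 337 in siSNRPA1 cells, 30.6 in siSNRPB cells and 247 in siCtrl cells. In pools of bulk RNA, fewer cells with a transcript and less of it per cell cannot be told apart. Informative reads, which match just 1 of the inclusion and exclusion isoforms, numbered 7831446 in siSNRPA1, 3396043 in siSNRPB and 5707839 in siCtrl over all events. Of 7 genes expected in this mesenchymal-like line, 4 had events (CD44, AXL, LGALS1 and SPARC). They summed to 3770, 3820 and 3683 reads per 1000000 such reads in siSNRPA1, siSNRPB and siCtrl. Most of this was CD44, with 3432, 3540 and 3266, while SPARC was low, with 3.62, 2.27 and 3.07. Of 8 luminal or epithelial genes, 7 had events and summed to 100, 78.1 and 90.1 per 1000000 in the same pools, most of it ERBB2. Among these, GATA3 stood above SPARC, with 22.1, 17.4 and 15.3.

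Long exons differed from shorter ones in their place within genes. Their median length was 851 nt, 421 measured at least 1000 nt, 122 at least 2000 nt and 12 at least 5000 nt, and the longest was the 12708-nt exon of the mucin gene MUC4. In GENCODE 29, 340 of them (31.2%) were wholly coding, against 46.9% of the exons under 500 nt. A further 209 (19.2%) were partly coding, against 6.35%, and 410 (37.6%) lay in transcripts not annotated as protein coding, against 30.9%. These included 128 exons of transcripts annotated as retained introns and 148 of transcripts annotated as targets of nonsense-mediated decay. An annotated intron lay inside 227 long exons (20.8%), against 0.649% of shorter ones, so that part of this class consists of segments that other transcripts splice. The remaining long exons were 35 in 5′ UTRs, 2 in 3′ UTRs and 93 with no exact match in the annotation.

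Flanking introns and exon ends were compared in the same way. Median GC content was 50% over the annotated long exons and 49.5% over the shorter ones, while among tested exons it was 47.45% over 200 long ones and 49.55% over shorter ones. The upstream intron had a median of 2992 nt, against 2334 nt for shorter exons, and the downstream intron 2830 nt, against 2234 nt. The last 2 bases of the exon were AG in 61.3% of long exons (95% Wilson interval 58.3 to 64.3), against 55.7% of shorter ones (55.2 to 56.2). Among the 66 coding long exons that could be tested in any comparison, 46 (69.7%, interval 57.8 to 79.4) had a length that is a multiple of 3, against 49.6% (43.8 to 55.5) of the coding long exons that were not tested. In exons under 500 nt these shares were 58.3% and 49.5%. Testing asked for depth and also for reads of both classes, as given below, so the tested exons are those with skipping seen in the reads.

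Exclusion reads were rare for long exons. The median long exon had 137 informative reads in siSNRPA1, 77 in siSNRPB and 102 in siCtrl, and the median shorter exon 21, 14 and 17. Long exons held 13.1%, 15.4% and 14.0% of all informative reads in siSNRPA1, siSNRPB and siCtrl, but 2.22%, 2.41% and 2.35% of the exclusion reads. Of 677 long exons with at least 20 informative reads in every pool, 395 (58.3%) had no exclusion read in any pool, against 39.9% of shorter exons. Such exons give no test of skipping. Inclusion reads can lie anywhere in the exon and exclusion reads only at the skipping junction, so inclusion reads grow with exon length. These contrasts with shorter exons thus do not by themselves show less skipping. The authors' inclusion level, a fraction, was compared at 20 or more informative reads. Its medians in siSNRPA1, siSNRPB and siCtrl were 0.82, 0.83 and 0.84 over long exons, and 0.72, 0.83 and 0.82 over shorter ones. The MUC4 exon had 3164, 567 and 5348 inclusion reads in siSNRPA1, siSNRPB and siCtrl, and no exclusion read in any of them. A count of 0 covers counting error only, since reads are not independent molecules.

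For siSNRPA1 against siCtrl, 205 of the 1089 long exons could be tested. The test asked for 20 or more informative reads per pool, and for 5 or more reads of each class, inclusion and exclusion, in the pools combined. Of the rest, 264 were too shallow and 620 were short of exclusion or inclusion reads. An exon is said to have fallen or risen if its inclusion and exclusion reads gave an adjusted p under 0.05 in Fisher's exact test (two-sided, with Benjamini-Hochberg adjustment over every tested exon of any length). The authors' inclusion level, a fraction from 0 to 1, also had to differ by at least 0.1 in the direction of the reads.

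After SNRPA1 knockdown, inclusion fell in 14 long exons and rose in 6, together 9.76% of 205 (interval 6.40 to 14.6). Of all 6459 tested exons 17.0% passed, with 12.8% falling and 4.18% rising. The falls include exons of BIRC5, SENP5, TROVE2 and NDUFV3, and the rises include the giant exon of the ankyrin gene ANK2. The median difference in inclusion level was -0.01 over the tested long exons and -0.02 over all tested exons.

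**Figure D1:**
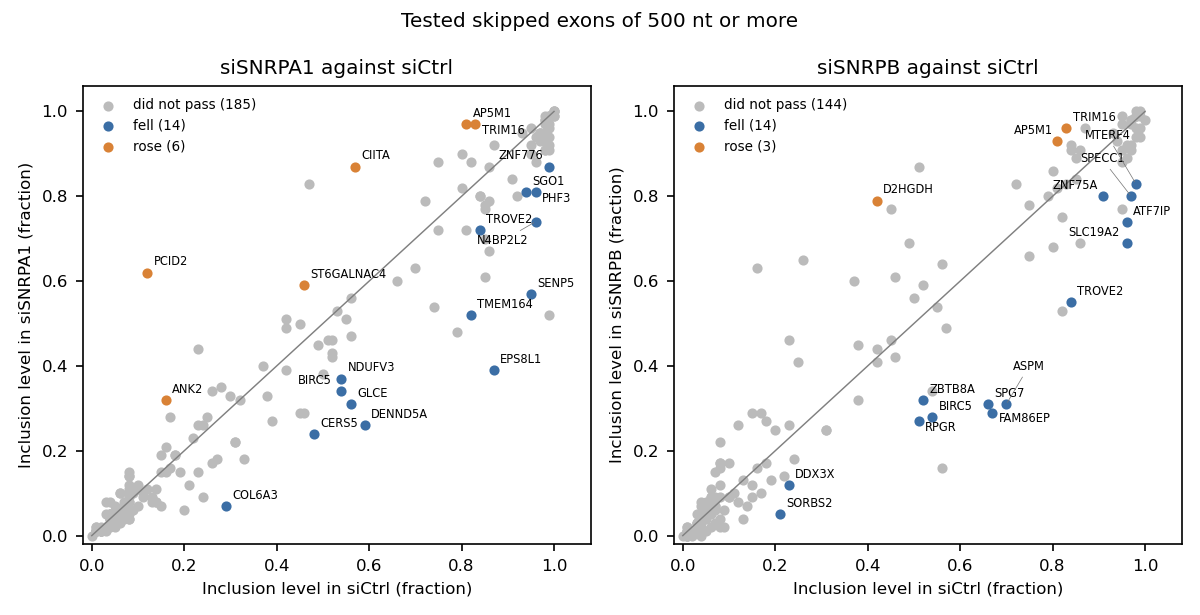
Inclusion level of each tested long exon in the knockdown pool (vertical axis, fraction) against the siCtrl pool (horizontal axis, fraction), for siSNRPA1 on the left and siSNRPB on the right. Each point is 1 exon; named points fell (blue, 14 in each panel) or rose (orange, 6 and 3), and the diagonal marks equal levels.

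The BIRC5 exon had the smallest adjusted p of the exons that passed for siSNRPA1. BIRC5 encodes survivin, an apoptosis inhibitor that is also part of the chromosomal passenger complex at centromeres. Its 816-nt exon, from a transcript annotated as a retained intron (chr17:78215966-78216781), had an inclusion level of 0.34 in siSNRPA1, 0.28 in siSNRPB and 0.54 in siCtrl. Exclusion reads made up 518 of 1805 informative reads in siSNRPA1 and 182 of 1423 in siCtrl, an exclusion share of 28.7% (26.7 to 30.8) against 12.8% (11.2 to 14.6), with an adjusted p of 2.64e-25. Both knockdowns were below siCtrl and close to each other. SGO1 encodes shugoshin, which protects centromeric cohesin. Its exon stood at 0.81 in siSNRPA1, 0.93 in siSNRPB and 0.94 in siCtrl, with 24, 4 and 5 exclusion reads beside 952, 485 and 810 inclusion reads (adjusted p 0.0112 for siSNRPA1 against siCtrl). It was low in siSNRPA1, while siSNRPB and siCtrl were close.

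The exons of SENP5, PHF3, TROVE2 and ZNF776 were lower in siSNRPA1 than in siCtrl. The 1544-nt exon of SENP5, a protease that removes SUMO from proteins, stood at 0.57 in siSNRPA1, 0.77 in siSNRPB and 0.95 in siCtrl. It had 40, 8 and 4 exclusion reads in these pools beside 1119, 541 and 1136 inclusion reads (adjusted p 5.27e-07 for siSNRPA1 against siCtrl, and 0.0612 for siSNRPB). The PHF3 exon, in a gene whose protein binds the tail of RNA polymerase II, stood at 0.81, 0.98 and 0.96 in siSNRPA1, siSNRPB and siCtrl, with 14, 0 and 1 exclusion reads beside 4426, 2676 and 3589 inclusion reads. Only siSNRPA1 was low at PHF3, and its share of exclusion reads was 0.315% (0.188 to 0.529). TROVE2 encodes the RNA-binding Ro60 protein. Its 601-nt exon stood at 0.72 in siSNRPA1, 0.55 in siSNRPB and 0.84 in siCtrl, with exclusion shares of 8.93%, 17.0% and 3.97% (adjusted p 1.68e-05 and 4.96e-15 for the knockdowns against siCtrl). The 2401-nt form of the ZNF776 exon, in a zinc-finger gene, stood at 0.87 in siSNRPA1 and at 0.99 in both siSNRPB and siCtrl, with 11, 0 and 0 exclusion reads.

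The exons of NDUFV3, CERS5 and GLCE also fell. NDUFV3 encodes an accessory subunit of respiratory complex I, and its long exon gives the longer of the known protein forms. The exon stood at 0.37 in siSNRPA1, 0.34 in siSNRPB and 0.54 in siCtrl. Its exclusion reads numbered 83 of 1246 in siSNRPA1, 18 of 410 in siSNRPB and 21 of 963 in siCtrl, with an adjusted p of 1.13e-05 for siSNRPA1 and 0.0753 for siSNRPB. The levels of both knockdowns were thus alike, but the exclusion reads passed the test in siSNRPA1 and not in siSNRPB. CERS5 encodes a ceramide synthase, and its 1107-nt exon stood at 0.24 in siSNRPA1, 0.24 in siSNRPB and 0.48 in siCtrl. It had 11, 0 and 3 exclusion reads beside 57, 16 and 84 inclusion reads. The low siSNRPB level was thus not matched by exclusion reads, and this pool was too shallow for the test. The 1127-nt exon of GLCE, an enzyme of heparan sulfate synthesis, stood at 0.31, 0.47 and 0.56 in siSNRPA1, siSNRPB and siCtrl, with 13, 0 and 0 exclusion reads.

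The other 5 falls were in EPS8L1, DENND5A, COL6A3, TMEM164 and N4BP2L2. EPS8L1, related to the actin regulator EPS8, had the largest fall: its 876-nt exon stood at 0.39 in siSNRPA1 and 0.87 in siCtrl, on 50 inclusion and 7 exclusion reads in siSNRPA1 and 76 and 0 in siCtrl. With 4 informative reads it could not be tested in siSNRPB, where its level was 0.07. The 764-nt exon of DENND5A, a regulator of Rab GTPases, stood at 0.26 in siSNRPA1, 0.07 in siSNRPB and 0.59 in siCtrl. The 618-nt exon of COL6A3, a chain of collagen VI, stood at 0.07 in siSNRPA1, 0.05 in siSNRPB and 0.29 in siCtrl, with 13, 5 and 2 exclusion reads. In all 3 genes the siSNRPB level was below siCtrl as well, on too few reads for the test. TMEM164 (664 nt) stood at 0.52 in siSNRPA1 and 0.82 in siCtrl, and N4BP2L2 (1259 nt) at 0.74 and 0.96.

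The 6 rises were in ANK2, AP5M1, TRIM16, PCID2, CIITA and ST6GALNAC4. The ANK2 exon, which encodes the giant insert of the neuronal form of ankyrin-B, a membrane adaptor of the spectrin skeleton, stood at 0.32 in siSNRPA1, 0.63 in siSNRPB and 0.16 in siCtrl. It had 2, 0 and 9 exclusion reads beside 445, 104 and 266 inclusion reads (adjusted p 0.0171 for siSNRPA1 and 0.210 for siSNRPB). AP5M1 encodes a subunit of the endosomal adaptor complex AP-5, and its exon stood at 0.97 in siSNRPA1, 0.93 in siSNRPB and 0.81 in siCtrl, with 0, 0 and 8 exclusion reads. The 856-nt exon of TRIM16, a gene of the TRIM ubiquitin ligase family, stood at 0.97, 0.96 and 0.83 in siSNRPA1, siSNRPB and siCtrl, with 0, 0 and 11 exclusion reads. In AP5M1 and TRIM16 the exclusion reads seen in siCtrl were at 0 in both knockdowns.

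PCID2 had the largest rise. It encodes a subunit of the TREX-2 complex of mRNA export, and its 2080-nt exon stood at 0.62 in siSNRPA1, 0.26 in siSNRPB and 0.12 in siCtrl, with 2, 2 and 12 exclusion reads beside 250, 68 and 124 inclusion reads. CIITA encodes the transactivator of MHC class II genes, and its 2689-nt exon stood at 0.87, 0.49 and 0.57 in siSNRPA1, siSNRPB and siCtrl, with 0, 0 and 8 exclusion reads. The 578-nt exon of the sialyltransferase gene ST6GALNAC4 stood at 0.59, 0.61 and 0.46, with 1, 0 and 7 exclusion reads. All 6 rises rested on 2 or fewer exclusion reads in siSNRPA1. With read counts divided by 2, 4 of the 20 exons still passed (SENP5, BIRC5, NDUFV3 and TROVE2), and none of the rises did. In the authors' deposited table ANK2, AP5M1, CIITA, GLCE, ST6GALNAC4 and TMEM164 had a Bayes factor under 10. CERS5, SGO1 and TRIM16 overlap a gene on the other strand, and TRIM16 has a near-identical copy, so reads of these exons are uncertain. Annotated introns lie inside the exons of BIRC5, DENND5A, ANK2 and CIITA, the longest measuring 629, 557, 898 and 879 nt. Other transcripts splice within these segments, so their levels need not be skipping alone.

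For siSNRPB against siCtrl, 161 long exons could be tested. Of the rest, 410 were too shallow and 518 were short of exclusion or inclusion reads. After SNRPB knockdown inclusion fell in 14 long exons and rose in 3, together 10.6% (interval 6.70 to 16.3). Of all 4244 tested exons 21.3% passed, with 16.7% falling and 4.62% rising. The falls include exons of ASPM, ATF7IP, SLC19A2 and SPG7. The median difference was -0.01 over the tested long exons and over all tested exons.

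The ASPM exon had the smallest adjusted p of the exons that passed for siSNRPB. ASPM encodes a spindle-pole protein with many calmodulin-binding IQ repeats, and loss of the gene causes microcephaly. Its 4755-nt exon (exon 18 of 28) stood at 0.63 in siSNRPA1, 0.31 in siSNRPB and 0.70 in siCtrl. It had 34, 79 and 46 exclusion reads beside 6325, 1684 and 7156 inclusion reads. Exclusion reads were 4.48% (3.61 to 5.55) of informative reads in siSNRPB and 0.639% (0.479 to 0.851) in siCtrl, with an adjusted p of 7.36e-24. Exclusion was high in siSNRPB only, and in siSNRPA1 its share was 0.535% (0.383 to 0.746; adjusted p 0.644). Skipping of it keeps the frame.

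Exons of ATF7IP, DDX3X, TROVE2, MTERF4, ZNF75A and ZBTB8A were lower in siSNRPB than in siCtrl. The 1565-nt exon of ATF7IP, a partner of the histone methyltransferase SETDB1, stood at 0.94 in siSNRPA1, 0.74 in siSNRPB and 0.96 in siCtrl, with exclusion shares of 0.665%, 3.91% and 0.422% (adjusted p 2.29e-14 for siSNRPB). The 1393-nt exon of the RNA helicase gene DDX3X, from a transcript annotated for nonsense-mediated decay, stood at 0.15, 0.12 and 0.23, with 33, 9 and 2 exclusion reads. DDX3X exclusion was higher in both knockdowns than in siCtrl, and in siSNRPA1 it missed the difference of 0.1 with an adjusted p of 1.12e-06. TROVE2 had its lowest level in siSNRPB, as given above. The 2162-nt exon of MTERF4, which acts in the assembly of the mitochondrial ribosome, stood at 0.99, 0.83 and 0.98 in siSNRPA1, siSNRPB and siCtrl, with 0, 5 and 0 exclusion reads. The zinc-finger and BTB genes ZNF75A (524 nt) and ZBTB8A (824 nt) stood at 0.80 and 0.32 in siSNRPB and at 0.91 and 0.52 in siCtrl.

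Exons of SLC19A2, SPG7, SPECC1, SORBS2, RPGR and FAM86EP fell as well. The 603-nt exon of SLC19A2, a thiamine transporter, stood at 0.81 in siSNRPA1, 0.69 in siSNRPB and 0.96 in siCtrl, with 3, 7 and 0 exclusion reads (adjusted p 8.84e-04 for siSNRPB). The 1336-nt exon of SPG7, which encodes a mitochondrial protease, stood at 0.60, 0.31 and 0.66 in siSNRPA1, siSNRPB and siCtrl, with exclusion shares of 1.91%, 7.20% and 1.96%. For SPECC1, which encodes cytospin-B, the 1580-nt exon stood at 0.95, 0.80 and 0.97, with exclusion shares of 0.697%, 2.78% and 0.425% (adjusted p 4.60e-09 for siSNRPB). In SPG7 and SPECC1 the siSNRPA1 pool stayed close to siCtrl. SORBS2 encodes an adaptor of actin and cell adhesion, and its 642-nt exon stood at 0.12, 0.05 and 0.21 in siSNRPA1, siSNRPB and siCtrl. Its exclusion shares were 31.9%, 82.8% and 41.9%, so in siSNRPA1 the reads pointed the other way from the level. RPGR encodes a protein of the cilium, and its 948-nt exon stood at 0.37, 0.27 and 0.51, with 2, 6 and 2 exclusion reads. The 1077-nt exon of FAM86EP, a pseudogene with near-identical copies, stood at 0.40, 0.29 and 0.67. It had 0, 5 and 0 exclusion reads beside 102, 21 and 109 inclusion reads, so its lower siSNRPA1 level was not matched by exclusion reads.

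The 3 rises after SNRPB knockdown were AP5M1, TRIM16 and D2HGDH. D2HGDH encodes the dehydrogenase of D-2-hydroxyglutarate, and its 1065-nt exon stood at 0.51 in siSNRPA1, 0.79 in siSNRPB and 0.42 in siCtrl, with 0, 0 and 9 exclusion reads. BIRC5 and TROVE2 fell, and AP5M1 and TRIM16 rose, against siCtrl in both knockdowns. No long exon passed in opposite directions. The same counts over all tested exons are not given here, so neither count is read as a trait of long exons. Both comparisons share the siCtrl pool, so a high or low siCtrl value enters both. With read counts divided by 2, 6 of the 17 exons passed (ASPM, ATF7IP, BIRC5, SPECC1, TROVE2 and ZBTB8A), and in the authors' deposited table AP5M1, MTERF4, RPGR, TRIM16, ZBTB8A and ZNF75A had a Bayes factor under 10. MTERF4, RPGR, TRIM16 and ZNF75A overlap a gene on the other strand. Annotated introns lie inside the exons of BIRC5, DDX3X, MTERF4, SPG7, D2HGDH, RPGR and FAM86EP. The longest such intron in MTERF4 covers 1960 of 2162 nt, and that in RPGR 619 of 948 nt. The levels of these 7 exons need not be skipping alone.

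**Figure D2:**
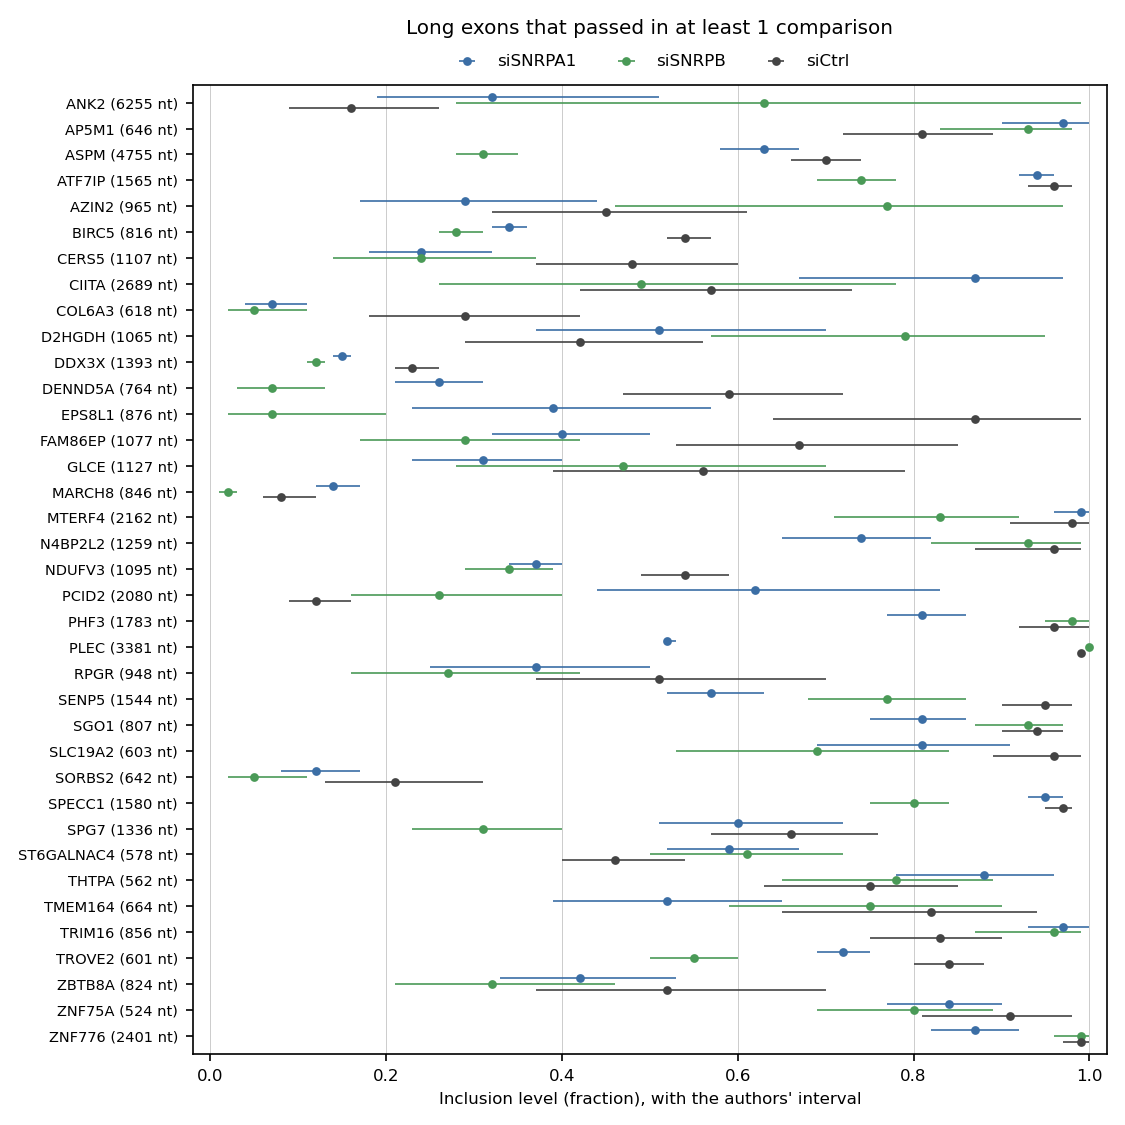
Inclusion level (horizontal axis, fraction) of the 37 long exons that passed in at least 1 of the 3 comparisons, by pool: siSNRPA1 in blue, siSNRPB in green and siCtrl in dark grey. Points are the authors' levels and lines the authors' intervals, whose width is not stated; ASPM is low only in siSNRPB (0.31), and BIRC5 is low in siSNRPA1 (0.34) and siSNRPB (0.28).

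The pools of the knockdowns were also compared with each other. Of 181 long exons tested, 3 were lower and 12 higher in siSNRPA1 than in siSNRPB, together 8.29%. Of all 5082 tested exons 14.7% passed, 6.38% lower and 8.28% higher in siSNRPA1. At an adjusted p under 0.05 with no demand on the level, 26.5% of the long exons and 26.9% of all exons passed. Most of the 12 are the exons described above as low in siSNRPB: ASPM, SPG7, ATF7IP, TROVE2, MTERF4, SPECC1, SLC19A2, FAM86EP, RPGR and ZBTB8A. Both comparisons use the same siSNRPB reads, from 1 library, so this overlap is not independent evidence. Exclusion of the ASPM exon was 0.535% in siSNRPA1 and 4.48% in siSNRPB (adjusted p 5.20e-25). The 846-nt coding exon of MARCH8, a membrane-bound ubiquitin ligase, stood at 0.14 in siSNRPA1, 0.02 in siSNRPB and 0.08 in siCtrl, with exclusion shares of 25.1%, 74.4% and 35.6% (adjusted p 2.60e-07). The 562-nt exon of THTPA, a thiamine triphosphatase, stood at 0.88, 0.78 and 0.75.

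The 3 exons lower in siSNRPA1 than in siSNRPB were those of PHF3, AZIN2 and PLEC. AZIN2 encodes an antizyme inhibitor of polyamine metabolism, and its 965-nt exon stood at 0.29 in siSNRPA1, 0.77 in siSNRPB and 0.45 in siCtrl, with 8, 0 and 7 exclusion reads. This exon holds 2 annotated introns, the longest of 708 nt, so its level need not be skipping alone. PLEC encodes plectin, a linker of intermediate filaments. Its 3381-nt exon stood at 0.52 in siSNRPA1, 1.00 in siSNRPB and 0.99 in siCtrl. Exclusion reads of PLEC were 18 beside 55672 inclusion reads in siSNRPA1, 4 beside 54786 in siSNRPB and 51 beside 80008 in siCtrl, so skipping was under 0.1% of informative reads in all pools and highest in siCtrl. Reads that fit both isoforms, from the flanking exons, numbered 229335 in siSNRPA1, 89258 in siSNRPB and 158134 in siCtrl. The low PLEC level in siSNRPA1 was thus not matched by exclusion reads, and against siCtrl it did not pass, since the reads pointed the other way.

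The inclusion level and the junction reads were apart in part of the long exons. Among long exons with at least 100 inclusion reads and no exclusion read, the level was under 0.5 in 68 of 379 (17.9%) in siSNRPA1, 38 of 289 (13.1%) in siSNRPB and 66 of 387 (17.1%) in siCtrl. For shorter exons these shares were 7.78%, 5.30% and 5.86%. The median level of such exons was 0.95, 0.96 and 0.96 over long ones and 0.98 in each pool over shorter ones. SON encodes a splicing cofactor of nuclear speckles, and its 5916-nt exon stood at 0.26 in siSNRPA1, 0.42 in siSNRPB and 0.41 in siCtrl. It had 1, 0 and 0 exclusion reads beside 25156, 19425 and 20590 inclusion reads. PRRC2B (2082 nt) stood at 0.48, 0.80 and 0.79 in siSNRPA1, siSNRPB and siCtrl, while its exclusion reads, 1, 0 and 10, were highest in siCtrl. For NIN, a centrosome gene, the 2139-nt exon stood at 0.56, 0.16 and 0.56 with 5, 0 and 5 exclusion reads. Why level and reads differ in these exons was not tested.

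A measure that puts both read classes on a per-length scale was therefore added after the data had been seen. Inclusion reads were divided by the exon length plus 100 positions and exclusion reads by 100 positions, and the length-scaled share is the inclusion density over the sum of both densities. By this share PLEC stood at 0.989 in siSNRPA1, 0.998 in siSNRPB and 0.978 in siCtrl, and SON between 0.998 and 1. The level was lower than this share by more than 0.3 in 50 of 222 tested long exons in siSNRPA1, 45 of 202 in siSNRPB and 54 of 221 in siCtrl. Level and share lay within 0.1 of each other in 121, 113 and 126 of these exons. With a difference of at least 0.1 in the length-scaled share in place of the level, 37 long exons passed for siSNRPA1 against siCtrl (24 falls, 13 rises; 18.0% against 20.4% of all tested exons). For siSNRPB against siCtrl 39 passed (30 falls, 9 rises; 24.2% against 25.4%), and for siSNRPA1 against siSNRPB 30 (5 falls, 25 rises; 16.6% against 18.1%).

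Most exons named above passed by both measures. Of all tested exons 15.4%, 19.9% and 13.8% passed by both in the siSNRPA1, siSNRPB and knockdown-to-knockdown comparisons. Of the tested long exons 8.78%, 10.6% and 7.18% did. Both measures use the same reads and the same adjusted p, so they are not independent. Among exons of any length that passed by the level, 996 of 1097, 843 of 903 and 700 of 745 passed by both. Of the 20 long exons for siSNRPA1 against siCtrl 18 did, the exceptions being N4BP2L2 and PHF3, whose scaled shares differed by -0.09 and -0.05. For siSNRPB against siCtrl 17 of 17 did, and ASPM stood at 0.793 in siSNRPA1, 0.305 in siSNRPB and 0.762 in siCtrl on the length-scaled share. For siSNRPA1 against siSNRPB 13 of 15 did, without PHF3 and PLEC. Exons that passed only by the scaled share include UHRF2, a ubiquitin ligase gene, whose 1519-nt exon had 65 inclusion and 47 exclusion reads in siSNRPA1, 31 and 10 in siSNRPB, and 76 and 3 in siCtrl, at levels of 0.02, 0.01 and 0.04. For SREK1, a splicing regulator, the 2868-nt exon had 2 exclusion reads beside 563 inclusion reads in siSNRPB and 24 beside 647 in siCtrl. The 1091-nt coding exon of EEF1D, which encodes the amino-terminal part of a long form of this elongation factor subunit, had 88 exclusion reads beside 1188 inclusion reads in siSNRPA1, 63 beside 530 in siSNRPB and 45 beside 1118 in siCtrl. EEF1D exclusion was higher in both knockdowns than in siCtrl, with adjusted p of 0.00744 and 2.00e-06. These exons were chosen after their values were seen.

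**Figure D3:**
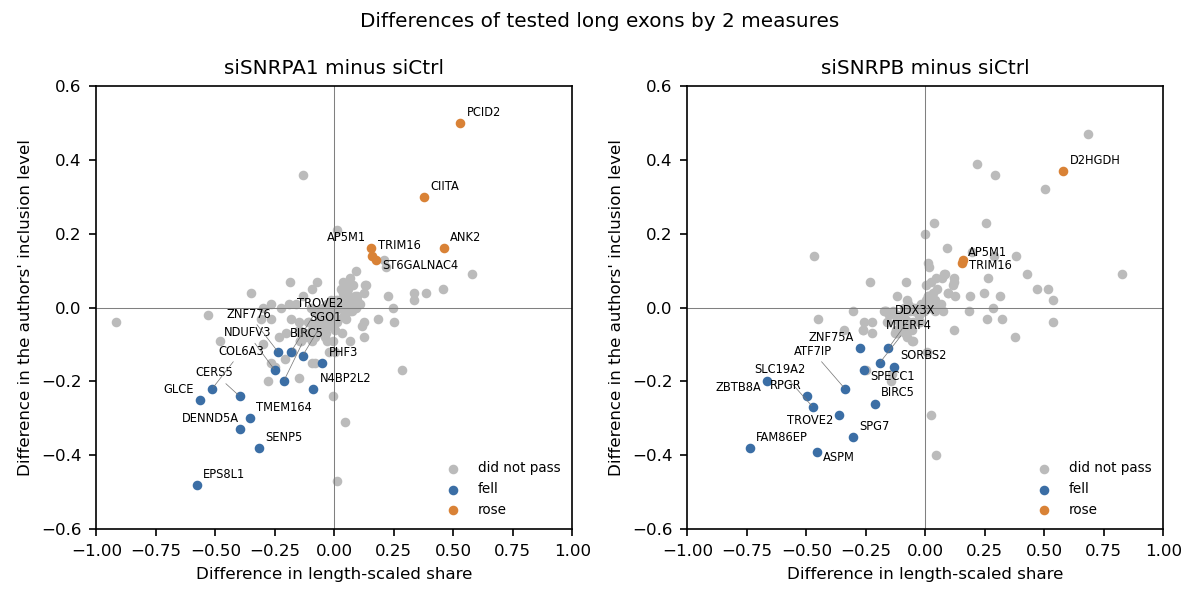
Difference in the authors' inclusion level (vertical axis) against the difference in length-scaled share (horizontal axis) for each tested long exon, siSNRPA1 minus siCtrl on the left and siSNRPB minus siCtrl on the right. Blue and orange points fell or rose by the level, and grey points did not pass. In the left panel PHF3 and N4BP2L2 lie within 0.1 of 0 on the horizontal axis. Grey points far to either side include exons short of the level difference. Others, such as ANK2 in the right panel, differed in level but missed the adjusted p.

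The share of tested exons that passed by the level was lower in each longer class up to 999 nt, and no lower at 1000 to 1999 nt than at 500 to 999 nt. For siSNRPA1 against siCtrl it was 25.7% up to 60 nt, 18.6% from 61 to 120 nt, 14.8% from 121 to 250 nt, 10.4% from 251 to 499 nt, 9.09% from 500 to 999 nt, 10.0% from 1000 to 1999 nt and 11.4% at 2000 nt or more. For siSNRPB against siCtrl it was 24.7%, 23.3%, 20.4% and 16.4% in the 4 classes under 500 nt, and 9 of 82, 6 of 47 and 2 of 32 exons in the 3 classes above. The last class held 35 and 32 tested exons, so its intervals were wide, 4.54 to 26.0 and 1.73 to 20.1. At an adjusted p under 0.05 with no demand on the level, 30.7% of long exons passed for siSNRPA1 against 31.8% of all exons, and 38.5% for siSNRPB against 38.0%. By p alone and by the scaled share, long exons were therefore close to the background. The shares by p are not at equal depth. Median informative reads in the shallower pool were 267 for tested long exons against 87 for all in the siSNRPA1 comparison, and 167 against 72 for siSNRPB. By the level and the scaled share together, 8.78% of long exons passed against 15.4% of all for siSNRPA1, and 10.6% against 19.9% for siSNRPB.

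**Figure D4:**
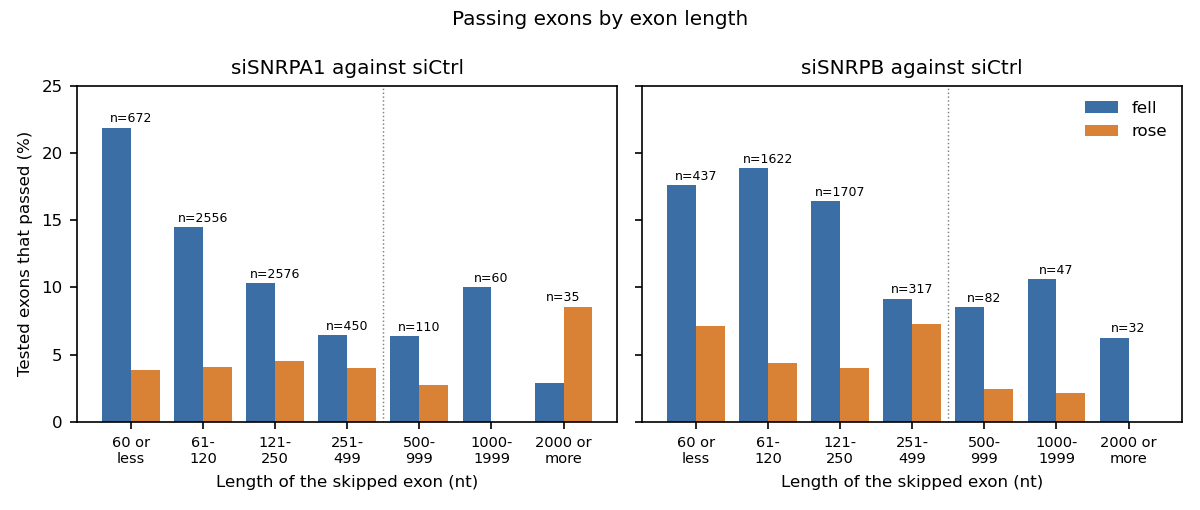
Percent of tested exons that fell (blue) or rose (orange) by the authors' level in each length class (horizontal axis, nt), siSNRPA1 against siCtrl on the left and siSNRPB against siCtrl on the right. The number of tested exons stands above each class and the dotted line marks 500 nt; falls go down to 6.36% in the class of 500 to 999 nt on the left, against 21.9% up to 60 nt.

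By place, 7 of 62 tested coding long exons passed for siSNRPA1 against siCtrl (11.3%), 4 of 37 partly coding (10.8%), 6 of 79 in transcripts not annotated as protein coding (7.59%), 3 of 19 not annotated (15.8%) and 0 of 8 in 5′ UTRs. For siSNRPB against siCtrl these were 6 of 51 (11.8%), 4 of 31 (12.9%), 6 of 60 (10.0%), 1 of 14 (7.14%) and 0 of 5. Long exons with an annotated intron inside passed in 4 of 32 cases for siSNRPA1 (12.5%) and in 7 of 31 for siSNRPB (22.6%), against 16 of 173 (9.25%) and 10 of 130 (7.69%) of those with none, beside 17.0% and 21.3% of all tested exons. The intervals of these shares overlapped for siSNRPA1 (4.97 to 28.1 and 5.77 to 14.5) and for siSNRPB (11.4 to 39.8 and 4.23 to 13.6). The share also differed with the level in siCtrl. Of exons at 0.9 or more in siCtrl, 5 of 44 passed for siSNRPA1 and 5 of 30 for siSNRPB. Of those at 0.5 to 0.89, 10 of 40 and 9 of 34 passed, and of those at 0.1 to 0.49, 5 of 55 and 3 of 41. Of those under 0.1, where a fall of 0.1 cannot occur, 0 of 66 and 0 of 56 passed.

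The 8 longest tested exons showed mostly small differences in level. The 8247-nt exon of UNC13B, a regulator of vesicle release, stood at 0.04 in siSNRPA1, 0.02 in siSNRPB and 0.04 in siCtrl. Its exclusion reads numbered 35, 19 and 13 beside 324, 75 and 267 inclusion reads, and only the scaled share passed, for siSNRPB against siCtrl (adjusted p 1.71e-04). The 5589-nt exon of NACA, which gives the muscle form of the nascent-polypeptide-associated complex, stood at 0.02, 0.02 and 0.01. Its level was at or under 0.02 in all pools, with 747, 355 and 555 exclusion reads beside 1839, 883 and 899 inclusion reads over its length. For siSNRPA1 against siCtrl the NACA reads differed toward inclusion (Fisher's exact test, adjusted p 9.36e-08), but the level differed by just 0.01. The 3807-nt coding exon of MPRIP, a binding partner of myosin phosphatase, stood at 0.08 in siSNRPA1, 0.17 in siSNRPB and 0.08 in siCtrl. Its exclusion reads numbered 1979, 927 and 2162 beside 6360, 6869 and 7060 inclusion reads, with an adjusted p of 2.75e-83 for siSNRPB against siCtrl. The MPRIP difference of 0.09 missed the limit of 0.1, and siSNRPA1 and siCtrl were alike. ANK2 and ASPM, 6255 and 4755 nt long, are described above, and SAYSD1 (4407 nt), TMEM45A (4051 nt) and ZNHIT1 (3478 nt) had adjusted p above 0.05 for siSNRPA1 against siCtrl.

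**Figure D5:**
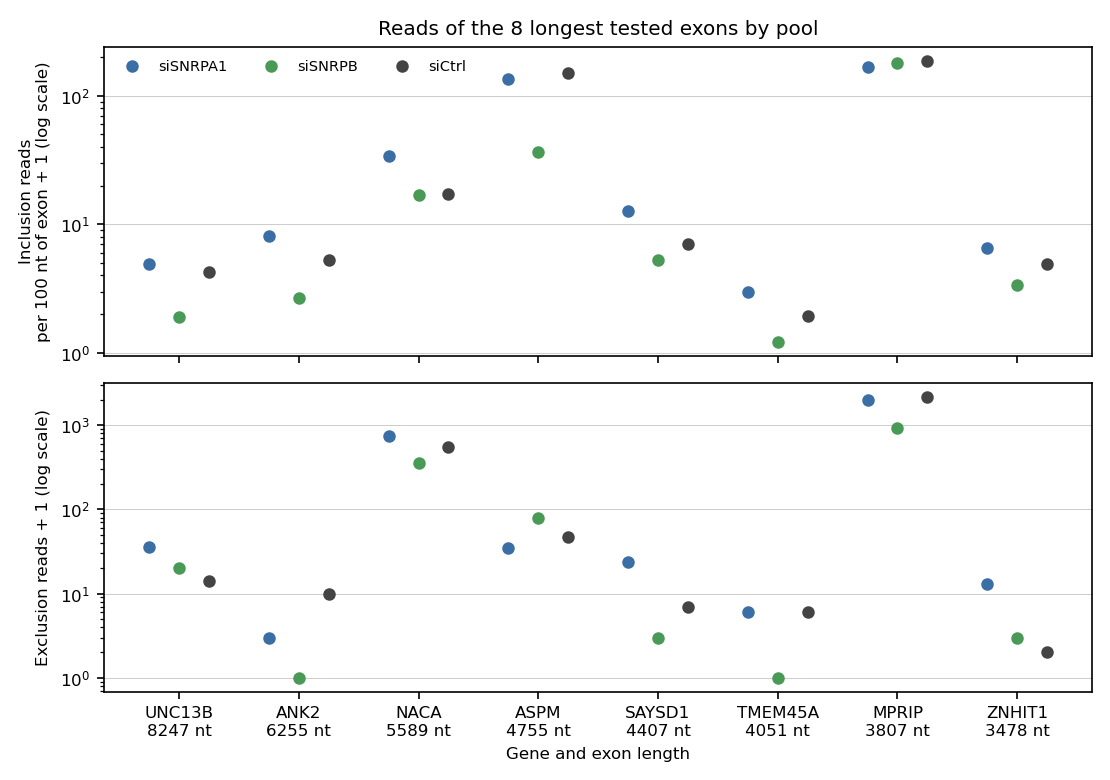
Inclusion reads per 100 nt of exon (top) and exclusion reads (bottom) of the 8 longest tested exons, each plus 1 on a log axis, by pool: siSNRPA1 in blue, siSNRPB in green and siCtrl in dark grey. In ASPM the siSNRPB pool is lowest at the top (1684 inclusion reads over 4755 nt) and highest at the bottom (79 exclusion reads).

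Long exons of genes grouped by function passed in small numbers. Of 14 long exons of splicing factors and RNA-binding proteins, 10 were tested for siSNRPA1 and 9 for siSNRPB, and 0 passed, beside 17.0% and 21.3% of all tested exons. Of their tested exons of any length, 18 fell and 5 rose of 163 for siSNRPA1, and 23 fell and 8 rose of 144 for siSNRPB. Within this group the 1474-nt exon of SNRNP70, the U1 70K protein gene, had 839 exclusion reads beside 264 inclusion reads in siSNRPA1, 649 beside 30 in siSNRPB and 615 beside 187 in siCtrl, at levels of 0.01, 0.00 and 0.01. The 896-nt exon of RBM39, a splicing factor gene, had 1658 beside 423, 694 beside 139 and 548 beside 255 at the same levels. Both exons lie in transcripts not annotated as protein coding and were at or under 0.01 in every pool. Of 28 long exons of cytoskeleton and adhesion genes, 8 were tested for siSNRPA1 with 1 rise (ANK2), and 9 for siSNRPB with 1 fall (SORBS2). Of their exons of any length, 7 fell and 8 rose of 90 for siSNRPA1, and 4 fell and 12 rose of 70 for siSNRPB. The median difference in level of the splicing group was -0.005 for siSNRPA1 and -0.01 for siSNRPB, and that of the cytoskeleton group was 0 and 0.01, beside -0.02 and -0.01 over all tested exons.

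Spindle and giant-exon genes held 10 long exons, of which 4 were tested in each knockdown, and ASPM alone passed, for siSNRPB. At any length 6 fell and 1 rose of 27 for siSNRPA1, and 4 fell and 1 rose of 20 for siSNRPB. Zinc-finger genes held 31, with 1 fall among 7 tested for siSNRPA1 (ZNF776) and 1 among 5 for siSNRPB (ZNF75A). At any length 20 fell and 14 rose of 125, and 16 fell and 2 rose of 77. Chromatin regulators held 10, with PHF3 as 1 fall among 3 tested for siSNRPA1 and none among 2 for siSNRPB, and at any length 12 fell and 4 rose of 101, and 9 fell and 5 rose of 74. Of 2 long exons of apoptosis genes BIRC5 fell in both knockdowns, and XIAP, tested in both, stood at 0.96 in siSNRPA1, 0.97 in siSNRPB and 0.95 in siCtrl. At any length 6 apoptosis exons fell and 1 rose of 38 for siSNRPA1, and 10 fell and 1 rose of 29 for siSNRPB. DNA repair genes held 5 long exons with 1 tested, MDC1, at 0.95, 0.95 and 0.93, and at any length 6 fell and 1 rose of 23, and 4 fell and 1 rose of 11. Signalling genes held 10 with 3 tested in each knockdown, and 0 passed, while at any length 10 fell and 2 rose of 78, and 12 fell and 4 rose of 59. Of all tested exons of any length, 17.0% passed for siSNRPA1 and 21.3% for siSNRPB. No test was made over a list, and with so few long exons tested these counts are not read as a trait of any group.

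At the length limit, the tested exons of SRD5A1 (502 nt), NCAPH (503 nt) and MDH1 (505 nt) stood at 0.08, 0.91 and 0.17 in siSNRPA1 and at 0.14, 0.98 and 0.26 in siCtrl. Just under the limit, CAPZB (497 nt), F3 (495 nt) and HPS3 (495 nt) stood at 0.04, 0.07 and 0.96 in siSNRPA1 and at 0.06, 0.09 and 0.97 in siCtrl. The deepest long exon was 503 nt of ACTB in a transcript not annotated as protein coding, with 135965, 77951 and 105467 inclusion reads and no exclusion read in siSNRPA1, siSNRPB or siCtrl.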

How the data were processed

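Total RNA of MDA-LM2 cells was made into stranded total RNA libraries, per the labels' protocols. The submitters' processing notes name STAR 2.7 and hg38 with no role, and the column names are those of MISO, whose version and settings, like the read length, are not stated in any source used. The design text names SNRPB2 in 1 place, where the labels have SNRPB, the name kept in this text. The labels do not say whether libraries came from separate cultures.

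The authors deposited for each group an inclusion level, per the file headers a posterior mean, as a fraction rounded to 2 decimals, with the bounds of an interval. They also deposited reads per class, fitting inclusion only, exclusion only, both or neither. In 2 comparison files the authors deposited a difference, a score from -1 to 1, which matched the summaries within 0.005 in all 44653 siSNRPA1 events and all 38112 siSNRPB events, and a Bayes factor, a ratio of evidence. The number of unused columns of per-sample values was 0. Depth per pool is given above.

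Places and sequences came from GENCODE 29 (996 of 1089 long exons matched exactly). The two-sided Fisher's exact test was run on reads with Benjamini-Hochberg adjustment over all tested exons of any length. It was also run on simulated reads, with the level set to the share of inclusion reads and no read minimums. That run therefore does not cover the authors' level or any spread between libraries. Intervals of shares are 95% Wilson intervals. They and the tests cover counting error only, since reads are not independent molecules. Python 3.11.15, scipy 1.17.1, numpy 2.4.6 and pandas 2.3.3 were used. The alternatives changed the read minimums, the level, the depth, overlapping forms, the other-strand exons and the length limit. A length-scaled share with 100, 50 or 150 positions was added after seeing the data.

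The long exons, gene lists and naming rule were chosen with earlier results of these data known. The rule takes, per comparison, the 10 largest falls and rises with a minimum of 50 informative reads per pool. It adds passing exons of each list, exons passing in both knockdowns, the 8 longest tested, 3 on each side of the length limit and the deepest per place. COL6A3, SGO1, FAM86EP, RPGR, MARCH8, AZIN2, SON, PRRC2B, NIN, SNRNP70, RBM39, XIAP, MDC1, MUC4 and the exons passing only by the scaled share were named after their values were seen.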

Additional observations from a re-analysis of the deposited data

Results flagged for a closer look

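The following long exons differed between the 2 knockdowns by the test of siSNRPA1 against siSNRPB itself (Fisher's exact test with Benjamini-Hochberg adjustment). The value is the siSNRPA1 minus siSNRPB difference in inclusion level. It was -0.48 for PLEC, -0.48 for AZIN2 and -0.17 for PHF3. It was 0.10 for THTPA, ZBTB8A and RPGR, 0.11 for FAM86EP, 0.12 for MARCH8 and SLC19A2, and 0.15 for SPECC1. It was 0.16 for MTERF4, 0.17 for TROVE2, 0.20 for ATF7IP, 0.29 for SPG7 and 0.32 for ASPM. The PLEC and PHF3 differences were under 0.1 on the length-scaled share. The libraries of a group were deposited as 1 pool, so none was set against the others of its group.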

How the results depend on the processing

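The counts of passing long exons were 20 of 205 tested for siSNRPA1 against siCtrl, 17 of 161 for siSNRPB against siCtrl and 15 of 181 for siSNRPA1 against siSNRPB, and follow in that order. Among the settings below, the share over all tested exons is given only for the length-scaled share with 100 positions. With a level difference of 0.2 they were 11 (9 falls, 2 rises), 10 (9, 1) and 5 (3 rises). With read counts divided by 2 they were 4 (4 falls, 0 rises), 6 (6, 0) and 5 (0, 5). With reads thinned to the smallest pool they were 8 of 151 tested (7, 1) for siSNRPA1 against siCtrl and 9 (7 rises) for siSNRPA1 against siSNRPB. At a length of 1000 nt they were 10 of 95 tested (7, 3), 8 of 79 (7, 1) and 8 (6 rises). The shares against siCtrl, 10.5% and 10.1%, were thus close to 9.76% and 10.6% in the main setting. At 400 nt they were 28 of 206 tested (22, 6) for siSNRPB, and siSNRPA1 had 10 rises of 268. With no minimum per read class they were 11 of 679 tested (1 rise) for siSNRPB, and siSNRPA1 against siSNRPB had 1 fall. With the share of inclusion reads as level they were 24 (16, 8), 35 (27, 8) and 25 (6, 19), but only 6 of the 20, 8 of the 17 and 5 of the 15 exons still passed, and ASPM, ATF7IP, SENP5 and NDUFV3 were among those that did not. The authors' Bayes factor of 10 gave 8 rises for siSNRPB. The length-scaled share gave 37 (24, 13), 39 (30, 9) and 30 (5, 25) with 100 positions, 39 (25, 14), 33 (25, 8) and 29 (6, 23) with 50, and 39 (26, 13), 42 (31, 11) and 32 (6, 26) with 150. The median difference was recomputed only with minimums of 10 and 50 informative reads. It was -0.01 with both for siSNRPA1 against siCtrl, and -0.01 and 0 for siSNRPB against siCtrl. No alternative could reverse the direction of a passing exon, since passing already required the level and the reads to share a direction. The causes were not tested beyond what each alternative changes by construction. No paired analysis was possible because each group's libraries were deposited as 1 pooled set of values. Exclusion reads limit these results: many calls rest on fewer than 10 of them in a pool.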
